A study of Mus musculus with 6 samples.

Results

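The enzymes that write, maintain and remove DNA methylation were examined in mouse A2Lox.cre embryonic stem (ES) cells on day 3 of embryoid body differentiation. The 9 genes were the DNA methyltransferase genes Dnmt1, Dnmt3a, Dnmt3b and Dnmt3l, the dioxygenase genes Tet1, Tet2 and Tet3, the maintenance cofactor gene Uhrf1 and the glycosylase gene Tdg. They were taken by gene symbol from a table of 36699 gene rows, and each symbol matched 1 row. Of the 9, 8 were tested between the groups and 1, Dnmt3b, was not.

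One group of 3 libraries came from cells without doxycycline (replicates 2, 3 and 4). The other group of 3 came from cells given doxycycline for 24 hours from day 2, which switches on a Flag-tagged copy of the zinc-finger factor Sp5 (replicates 1, 3 and 4). Both groups were the same line, grown on feeder fibroblasts from FVB mice until these were stripped off before suspension culture. The comparison asked which genes Sp5 regulates. Doxycycline and the transgene differed together between the groups, and cells given the drug without the transgene were not analysed here. Whether each library was a culture of its own is not stated, and the p-values may therefore reflect technical spread alone.

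Methyl groups on cytosine of CpG dinucleotides are set by the de novo enzymes Dnmt3a and Dnmt3b, which the catalytically inactive Dnmt3l assists, and are copied after replication by Dnmt1, which Uhrf1 brings to hemimethylated DNA. Tet enzymes oxidise 5-methylcytosine, and Tdg excises the later oxidation products so that base excision repair can restore unmodified cytosine. De novo methylation rises as the epiblast leaves the naive pluripotent state, and Tet1 and Dnmt3b are long known as abundant transcripts of early embryonic cells.

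Sp factors bind GC boxes (GGGCGG, read on both strands), so the start sites of the 9 genes were searched for this motif. In RefSeq windows of GRCm38.p6 that run from 250 bases before to 50 after a transcription start, all 9 genes were matched, with 16 windows between them. A GC box was present in 12 of these 16 windows (75.0%), against 35.7% of all 32851 windows. GC boxes contain a CpG, and among the 14281 windows with at least 10 CpG dinucleotides 69.8% held one. For the members this was 10 of 12 such windows. Dnmt3a had the most boxes, 6, 7 and 2 at its 3 annotated starts, where the windows of starts 1 and 2 overlap and so do some matches. Tdg had none although its window held 26 CpG. The stretches below are those of the 3 genes that fell, beside Uhrf1, which was not called and whose group values lay closest together. Each ends before the annotated start, is free of annotated exons in GENCODE M21, reads 5′ to 3′ on the gene's strand, and has its GC boxes in capitals.

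Dnmt3a, start 1 (chr12:3806730-3806979, + strand): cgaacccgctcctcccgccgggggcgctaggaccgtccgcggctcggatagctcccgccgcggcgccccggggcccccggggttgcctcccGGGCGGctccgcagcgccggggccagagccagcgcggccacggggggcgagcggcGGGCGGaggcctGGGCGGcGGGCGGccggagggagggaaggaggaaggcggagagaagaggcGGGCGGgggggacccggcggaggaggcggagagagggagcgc
Dnmt3a, start 3 (chr12:3891494-3891727, + strand): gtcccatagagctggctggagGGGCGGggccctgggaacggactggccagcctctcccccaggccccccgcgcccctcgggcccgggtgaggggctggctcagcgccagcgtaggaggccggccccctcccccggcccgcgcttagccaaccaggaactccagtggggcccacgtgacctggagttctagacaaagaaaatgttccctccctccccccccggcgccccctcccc
Tet1 (chr10:62887325-62887412, - strand): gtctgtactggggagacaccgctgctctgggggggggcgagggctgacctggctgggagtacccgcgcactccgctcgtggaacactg
Tet3 (chr6:83441679-83441754, - strand): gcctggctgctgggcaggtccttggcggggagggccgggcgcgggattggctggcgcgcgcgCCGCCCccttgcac
Uhrf1, start 2 (chr17:56304063-56304312, + strand): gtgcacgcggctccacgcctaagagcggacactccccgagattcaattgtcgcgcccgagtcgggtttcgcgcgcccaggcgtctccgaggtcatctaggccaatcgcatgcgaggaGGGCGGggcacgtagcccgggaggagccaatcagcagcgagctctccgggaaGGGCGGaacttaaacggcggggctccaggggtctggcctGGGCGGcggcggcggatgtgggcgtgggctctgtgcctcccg

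The stretch of Dnmt3a at start 1 holds 5 GC boxes and that at start 3 holds 1. Tet3 holds 1 box, on the opposite strand, and Uhrf1 holds 3. The Tet1 stretch of 88 bases holds none, and the single box of its full window lies farther upstream. Genes that fell and a gene that was not called thus both carry the motif. A match describes the letters only, and binding of Sp5 to these sites was not analysed here.

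**Figure D1:**
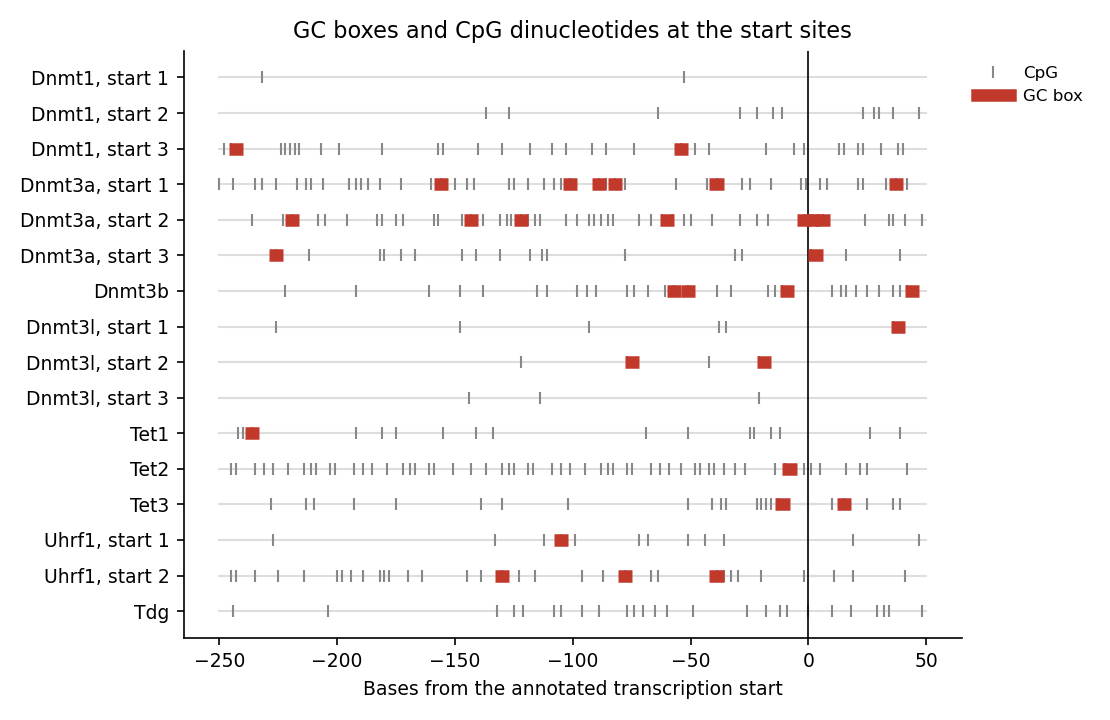
GC boxes (red bars) and CpG dinucleotides (grey ticks) in each RefSeq start-site window of the 9 genes, plotted against the distance in bases from the annotated start (black line). Dnmt3a has 6, 7 and 2 boxes at its 3 starts, and Tdg has none.

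Expression was given as 1 FPKM value per group (fragments scaled to transcript length and to mapped fragments), in which the authors had combined the 3 libraries. No value per library was analysed here, so the levels have no SD and depth is unknown. A gene is said to have risen or fallen where q was under 0.05 in the authors' deposited table. The standard error (SE) of a log2 fold change was derived from the deposited test statistic, and the 95% intervals below follow from it.

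Sp5 went from 0.769 to 126 FPKM with doxycycline, the direction that the labels state. The cells carried markers of the labelled type, with all 7 pluripotency and epiblast markers between 41.1 and 999 FPKM without doxycycline and between 15.8 and 1058 FPKM with it. Their sum was 1389 and 1423 FPKM, of which Pou5f1 alone made up 999 and 1058 FPKM. Within that list Nanog rose 2.54-fold, and Fgf5 (3.17-fold), Pou3f1 (2.90-fold) and Lin28a (1.21-fold) fell. The summed level of 5 primitive streak markers went from 12.1 to 143 FPKM, all 5 of them higher, and that of 6 visceral endoderm markers from 86.2 to 73.5 FPKM, with 3 lower. Of the streak sum, Eomes made up 10.4 FPKM without doxycycline and T 103 FPKM with it. All 8 fibroblast markers together summed to 16.2 and 15.8 FPKM, but single markers moved. Of the 7 tested, the collagen gene Col1a1 rose from 1.11 to 4.43 FPKM, and Thy1 (9.34 to 6.42 FPKM) and Dcn (2.08 to 1.39 FPKM) fell. Lum, the lowest of the list, was at 0.0267 and 0.0481 FPKM and was not tested. The part of these shifts in the results below was not tested. In RNA of whole embryoid bodies, fewer cells of a type and less RNA per cell cannot be told apart.

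Of the enzymes, 3 fell when Sp5 was induced, and none rose. These were the de novo methyltransferase gene Dnmt3a and the dioxygenase genes Tet1 and Tet3, each about 1.4-fold lower. The maintenance pair Dnmt1 and Uhrf1, the cofactor gene Dnmt3l, the glycosylase gene Tdg and Tet2 were not called. The 3 of 8 tested members that were called make 37.5%. In the same comparison 23.2% of all 18537 tested rows were called in either direction, 12.7% as lower and 10.5% as higher. Among the 12326 tested rows with 1 FPKM or more in a group, as for 7 of the 8 tested members, 28.3% were called and 16.8% were called as lower. Counts this small are described and not tested. The median log2 fold change was -0.16 for the 8 members, beside -0.044 for tested rows at 1 FPKM or more.

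**Figure D2:**
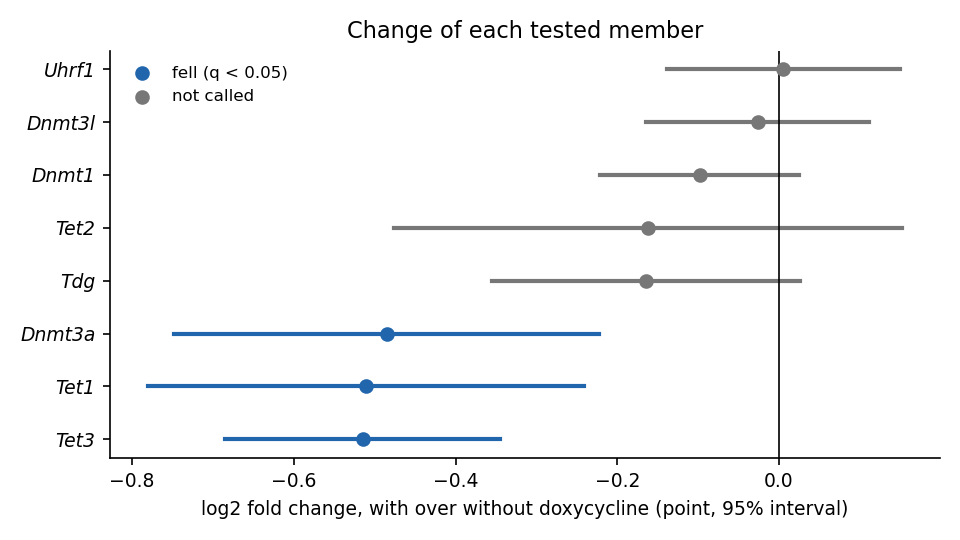
Log2 fold change (x axis, with over without doxycycline) of each tested enzyme gene, with the 95% interval from the authors' test statistic as a bar. The intervals of Dnmt3a, Tet1 and Tet3 lie below 0 and those of the other 5 genes include 0.

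Among the writers, Dnmt3a, a de novo methyltransferase, went from 130 FPKM in untreated cells to 92.8 FPKM in induced cells. It fell by 28.6%, a log2 fold change of -0.49 (SE 0.134, 95% interval -0.75 to -0.22, q = 0.00217 in the authors' deposited table). Its row, XLOC_006235, covers mm9 chromosome 12, 3806007 to 3914443, and as a gene-level value it does not separate transcripts from different starts. The other rows at that locus, Gm10485 and AC159324.1, were at 0.0104 FPKM or lower in both groups. Dnmt3a had a wide error for its level. Its SE was larger than that of 95.6% of the 568 tested rows within 0.5 log2 units of its level, whose median SE was 0.0719.

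Dnmt3b, the other de novo enzyme, was listed at 273 FPKM with doxycycline, the highest listed value of the 9 in that group and above 98.4% of tested rows. Without doxycycline it was listed at 0 with the status HIDATA, the mark Cuffdiff puts on loci whose fragment number exceeds its limit. That 0 is a failed estimate and not a level, so Dnmt3b has no fold change here and the listed q of 1 says nothing about it. The status applies to the whole row, so the 273 FPKM is also to be read with caution. As listed, it was 2.94 times the value of Dnmt3a with doxycycline. The transcript 7530422B04Rik at the same locus (mm9 chromosome 2, 153474426 to 153513466) had the same status, at 0 and 0.986 FPKM. Of 116 rows with this status in the table, 8 were listed at 0 in the group without doxycycline only.

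Dnmt3l, which stimulates the de novo enzymes without being an active methyltransferase itself, stood at 54.6 and 53.6 FPKM (log2 fold change -0.027, SE 0.0704, interval -0.16 to 0.11; q = 0.900 in the authors' deposited table). The interval leaves room for a value with doxycycline between 0.892 and 1.08 times that without. Its locus row shares its span with Aire, which was at 1.77 and 1.70 FPKM. The level of Dnmt3a was 2.38 times that of Dnmt3l without doxycycline and 1.73 times with it.

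**Figure D3:**
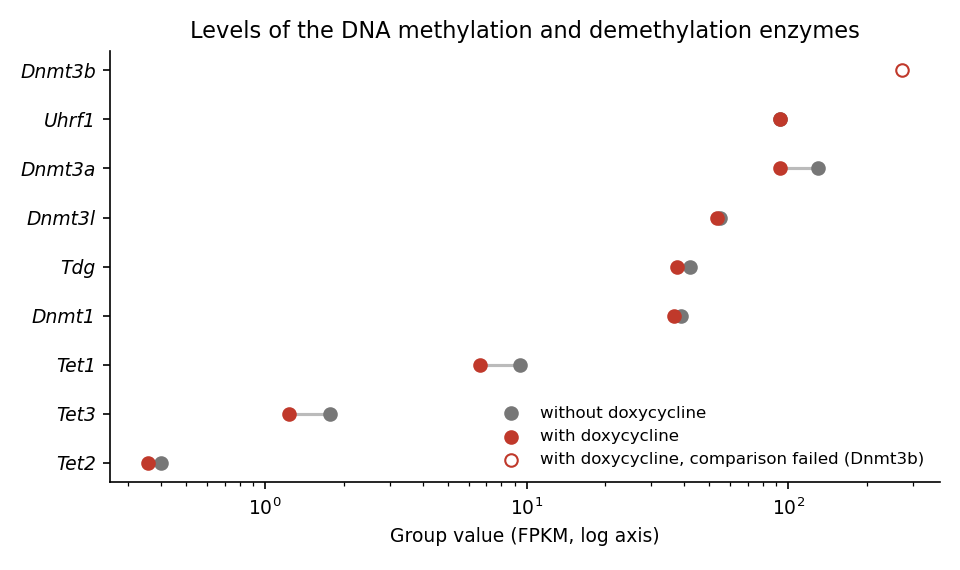
Group value of each gene in FPKM on a log axis, without doxycycline (grey) and with it (red), joined by a line. The points of Uhrf1 coincide at about 93 FPKM, Dnmt3a, Tet1 and Tet3 are shifted to lower values, and Dnmt3b (open circle) has a value with doxycycline only.

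Of the maintenance pair, Dnmt1, which copies methylation onto the new strand, stood at 39.1 FPKM without and 36.5 FPKM with doxycycline. Its log2 fold change of -0.098 (SE 0.0627, interval -0.22 to 0.025) was not called (q = 0.304 in the authors' deposited table). The error was among the smallest for its level, with 1.62% of 1418 rows of like level below it. The interval holds values from 0.858 to 1.02 times the level without doxycycline, and the estimate for Dnmt3a lies outside it, though the difference between the genes was not tested. Uhrf1, the cofactor that recognises hemimethylated CpG, stood at 93.1 and 93.4 FPKM (log2 fold change 0.0053, SE 0.0736, interval -0.14 to 0.15; q = 0.989 in the authors' deposited table). Its level was 2.38 times that of Dnmt1 without doxycycline and 2.56 times with it. Uhrf1 (mm9 chromosome 17, 56442744 to 56462909) and Dnmt1 (chromosome 9, 20711650 to 20757317) share their loci with no other row.

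The Tet genes spanned a wide range of levels. Tet1, the main Tet gene of pluripotent cells, went from 9.44 to 6.63 FPKM, and so fell by 29.8% (log2 fold change -0.51, SE 0.138, interval -0.78 to -0.24, q = 0.00155 in the authors' deposited table; mm9 chromosome 10, 62267318 to 62361866). Tet3, best known for oxidising the paternal genome after fertilisation, went from 1.77 to 1.24 FPKM, and so fell by 30.0% (log2 fold change -0.51, SE 0.0866, interval -0.68 to -0.35, q = 4.98e-08 in the authors' deposited table; mm9 chromosome 6, 83312367 to 83391672). Tet3 was 5.34 times lower than Tet1 without doxycycline and 5.35 times lower with it. The smaller q of Tet3 went with its smaller SE at nearly the same fold change. Only 0.0642% of 1557 tested rows of like level had a smaller SE than Tet3, and their median was 0.187.

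Tet2, which is prominent in naive ES cells and in blood, was listed at 0.399 and 0.357 FPKM, below 1 FPKM in both groups. Its log2 fold change of -0.16 (SE 0.16, interval -0.48 to 0.15) was not called (q = 0.583 in the authors' deposited table). The interval of Tet2 overlaps those of Tet1 and Tet3. Overlap alone does not decide whether its change differs from theirs, and the difference itself was not tested. The 3 Tet genes summed to 11.6 FPKM without and 8.22 FPKM with doxycycline. Tet1 made up 81.3% of that sum without doxycycline and 80.6% with it. The sums and ratios have no error of their own.

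Tdg, the glycosylase that removes oxidised 5-methylcytosine, stood at 42.2 and 37.6 FPKM. Its log2 fold change of -0.16 (SE 0.0971, interval -0.35 to 0.026) was not called (p = 0.0908, q = 0.252 in the authors' deposited table). The level of Tdg was 4.46 times that of Tet1 without doxycycline and 5.68 times with it. The neighbouring gene in its span, Glt8d2, was at 0.267 and 0.327 FPKM.

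Ordered by listed level with doxycycline, the genes ran Dnmt3b, Uhrf1, Dnmt3a, Dnmt3l, Tdg, Dnmt1, Tet1, Tet3 and Tet2. The place of Dnmt3b rests on its row with status HIDATA. Without doxycycline, and with Dnmt3b left out, Dnmt3a stood above Uhrf1 and the order of the others was the same. Levels have no error, so neighbours such as Uhrf1 and Dnmt3a with doxycycline (93.4 and 92.8 FPKM) cannot be ranked. The 3 falls were alike in size across levels that differ widely, from the 1.77 FPKM of Tet3 to the 130 FPKM of Dnmt3a. Falls of this size were not rare. Of all tested rows at 1 FPKM or more, 8.94% had a log2 fold change as low as that of Dnmt3a, 8.39% as low as that of Tet1 and 8.31% as low as that of Tet3. None of the 3 reached a 1.5-fold change. With that minimum added here to the authors' q under 0.05, 0 of the 8 tested members would be called, against 3 without it. The same 3 had an unadjusted p under 0.05.

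**Figure D4:**
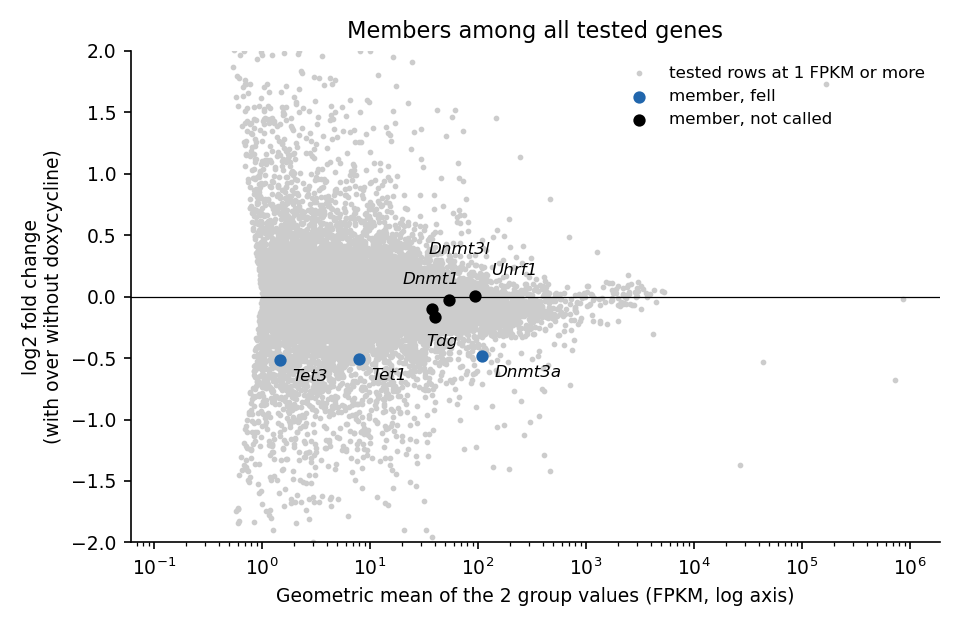
Log2 fold change (y axis, with over without doxycycline) against the geometric mean of both group values in FPKM (log axis) for tested rows at 1 FPKM or more (grey), with the tested enzyme genes that reach this level in colour. Dnmt3a, Tet1 and Tet3 (blue) lie near -0.5 at very different levels, and 136 of the 12245 rows lie beyond the y axis.

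Genes that work with the enzymes were taken from 7 lists with 108 different genes, of which 101 were tested. By the authors' deposited table, 15 of them rose, 16 fell and 70 stayed uncalled. The 30.7% called stands beside 23.2% of all tested rows and 28.3% of tested rows at 1 FPKM or more, the level that most of the list genes reach, so it lies near the background. The share differed between lists, from 11.1% of the readers to 53.3% of the methyl donor list. The counts per list are small, and no list was tested as a set. Among the maintenance partners, there was 1 riser and 1 faller among 9 tested genes (22.2% called), with a median log2 fold change of -0.10. Uhrf2, a relative of Uhrf1 that also binds modified CpG, rose from 24.1 to 30.8 FPKM (1.28-fold, q = 0.00263 in the authors' deposited table). Hells, a chromatin remodeller needed for methylation of repeats, fell from 107 to 80.7 FPKM (1.33-fold, q = 0.0024 in the authors' deposited table). Pcna, the replication clamp that holds Dnmt1 at the fork, stood at 565 and 526 FPKM and was not called.

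The methyl-CpG readers and imprint guards had 1 riser and no faller among 9 tested (11.1% called, median -0.15). The riser was Zfp57, which keeps imprints methylated, from 26.4 FPKM (1.25-fold, q = 0.0133 in the authors' deposited table). In the base excision repair list, 3 of 14 rose, 2 fell and 9 were not called (35.7% called, median -0.0081). The glycosylase genes Neil2 (1.27-fold), Nthl1 (1.19-fold) and Smug1 (1.18-fold) rose. Neil3, a glycosylase of dividing cells, fell from 5.20 to 3.83 FPKM (1.36-fold) and Polb, the gap-filling polymerase, from 32.2 to 26.7 FPKM (1.20-fold). The endonuclease gene Apex1, at 177 and 157 FPKM, was not called.

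In the list of regulators of Tet and Dnmt activity, 6 of 18 were higher, 3 lower and 9 not called (50% called, median -0.052). This share stands beside 28.3% of tested rows at 1 FPKM or more and 23.2% of all tested rows, again without a test. Dppa3, which shields DNA from methylation and restrains Uhrf1, rose from 11.4 to 18.4 FPKM (1.62-fold, q = 1.12e-09 in the authors' deposited table). Cxxc5, a CXXC protein that binds unmethylated CpG, rose 1.46-fold to 38.6 FPKM. Ogt, the glycosyltransferase that binds Tet proteins, rose 1.29-fold to 43.5 FPKM. Prdm14, a repressor of de novo methylation genes in naive cells, rose from 0.217 to 0.527 FPKM. It stayed below 1 FPKM and was named after its values were seen.

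The stress-induced Gadd45 genes went apart. Gadd45b rose 1.59-fold to 6.69 FPKM, whereas Gadd45a fell from 17.2 to 11.5 FPKM (log2 fold change -0.58) and Gadd45g from 7.02 to 4.82 FPKM (1.46-fold). Kdm2b, a CXXC-domain histone demethylase, fell 1.26-fold to 19.6 FPKM. Trim28 was not called, nor were Setdb1, Ehmt1, Ehmt2, Nsd1 and Setd2, which place or read histone marks linked to DNA methylation.

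**Figure D5:**
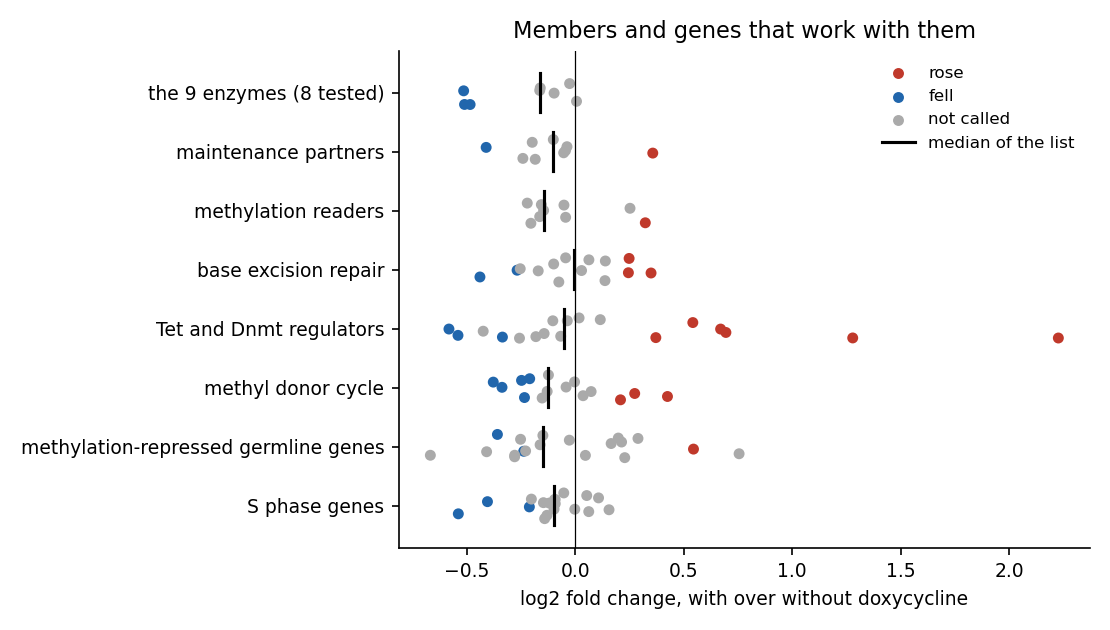
Log2 fold change (x axis, with over without doxycycline) of the 8 tested enzyme genes and of each tested gene in the 7 lists, by list, with genes that rose in red, fell in blue and stayed uncalled in grey, and the median as a black bar. List medians lie between -0.15 and -0.0081.

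In the list of the methyl donor cycle and the Tet cofactor, 3 of 15 rose, 5 fell and 7 were not called (median -0.12). The 53.3% called stands beside the same 28.3% of tested rows at 1 FPKM or more, again without a test. Mat2a, which makes the methyl donor S-adenosylmethionine, fell from 172 to 146 FPKM (1.18-fold, q = 0.00741 in the authors' deposited table). Idh1 (1.16-fold) and Idh2 (1.26-fold), which make the Tet cosubstrate 2-oxoglutarate, fell. Mtr and Mtrr, which remake methionine, rose 1.21-fold and 1.34-fold, and Shmt2 rose 1.16-fold. Ahcy, which clears the product of every methyl transfer, stood at 145 FPKM in both groups and was not called.

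Germline genes that promoter methylation is known to silence made up a further list. Among 19 tested there were 1 riser and 2 fallers (median -0.15). The 15.8% called lies below the 23.2% of all tested rows and the 28.3% of those at 1 FPKM or more. Some genes of this list were below 1 FPKM in both groups. Ddx4, a helicase gene of germ cells, rose from 4.82 to 7.02 FPKM (1.46-fold, q = 3e-08 in the authors' deposited table). Mael fell 1.28-fold to 5.89 FPKM and Sycp3, a protein of the meiotic chromosome axis, 1.18-fold to 43.5 FPKM. Dazl, at 1.91 and 1.71 FPKM, was not called. Methylation itself was not measured in these samples.

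Since Dnmt1 and Uhrf1 transcripts follow the cell cycle, replication genes were set beside them. Of 19 tested replication and cell cycle genes, 3 fell and none rose (median -0.098). The 15.8% called lies below the 28.3% called, and near the 16.8% called as lower, among all tested rows at 1 FPKM or more. Tk1, thymidine kinase, fell from 58.6 to 40.3 FPKM (1.45-fold, q = 2.24e-07 in the authors' deposited table), the cyclin gene Ccne1 fell 1.32-fold and Ccna2 fell 1.16-fold. The replicative helicase genes Mcm2 to Mcm7 were not called, as was the case for Dnmt1 and Uhrf1.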

How the data were processed

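Poly(A)-selected libraries of the 6 samples were made with a TruSeq RNA kit, and the protocol mentions no strand marking, per the labels' protocols. The submitters' processing notes name build mm9 and the tools Cuffdiff, Cufflinks 2.0.2, TopHat2 2.0.8, Picard and Bowtie. For annotation, library scaling and filters, settings were not given in the sources used here. The authors deposited 1 FPKM value per group and gene. Cuffdiff gave the deposited p-values and q-values, and its test statistic is a deposited score whose sign is opposite to the fold change.

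Fold changes were computed from the group FPKM values without a pseudocount. In all 18284 tested rows with both groups above 0, the deposited p equalled the two-sided normal p of the statistic to within 1e-05, so the SE was taken as the log2 fold change divided by the statistic. This SE holds only what the authors' model counts as spread. A call is status OK with q under 0.05, adjusted by the authors over all 18537 tested rows. The design allowed a refit had values per library been at hand. The table holds group values, so the deposited calls were used.

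The members and lists were chosen with earlier results of these data known. Named from each list were the called genes reaching 1 FPKM, at most 5 per direction with the largest change. Some of these genes are not reported here by name, and the list counts include them. Of 134 list and marker genes, 126 were tested and 130 had their own row. Starts were read as 0-based and are printed from 1, since row spans then equalled GENCODE M21 gene lengths for 11704 of 27867 genes, against 316 otherwise. Depth is unknown. Alternatives were a stricter q, a minimum fold, adjustment over expressed rows, 2 pseudocounts and 2 rescalings. Python 3.11.15, numpy 2.4.6, pandas 2.3.3, scipy 1.17.1 and matplotlib 3.10.9 were used.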

Additional observations from a re-analysis of the deposited data

How the results depend on the processing

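The count of 3 called members was the same with q under 0.01 and with p-values adjusted over tested rows at 1 FPKM or more. With a minimum fold of 1.5 it was 0, because the 3 falls lay between 1.40-fold and 1.43-fold. For the 101 tested list genes, 31 calls became 22 with q under 0.01, 31 with adjustment over expressed rows and 4 with the minimum fold. Of 32 log2 fold changes of members recomputed with another pseudocount or scaling, 28 moved by less than their SE, and no called member changed direction. With a pseudocount of 1 FPKM, Tet3 moved from -0.51 to -0.31. Subtracting the median of tested rows at 1 FPKM or more (-0.044), or scaling to an equal sum (-0.086), left the intervals of the 3 called members below 0. Both turned Dnmt3l, which was not called, from lower to higher, so that 6 in place of 7 of the 8 tested members had a lower value. No paired analysis was possible because the table holds no values per library, so neither a replicate block nor leaving out a replicate could be run. Depth is unknown, and Tet2, below 1 FPKM, has the widest interval of the 8.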

Other observations

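Top2a, the topoisomerase gene of dividing cells, went from 202 to 176 FPKM, a log2 fold change of -0.20, and was not called (q = 0.957 in the authors' deposited table). Ccna2, with a log2 fold change of -0.21 at 94.2 and 81.3 FPKM, fell (q = 0.0292 in the authors' deposited table). The SE derived from the deposited statistic was 0.952 for Top2a and 0.0772 for Ccna2. Among germline genes, Taf7l was listed at 0.847 and 0.533 FPKM (log2 fold change -0.67) and Asz1 at 0.0725 and 0.122 FPKM (log2 fold change 0.75). These were the lowest and the highest log2 fold change of that list, at levels below 1 FPKM, and both stayed uncalled (Taf7l q = 0.111, Asz1 q = 0.292, from the authors' deposited table). These genes were chosen after their values were seen.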
